A study of Mus musculus with 2 samples.

Results

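The genes described here encode the machinery that carries proteins into mitochondria and the complex that shapes the folds of the inner mitochondrial membrane. They were all protein-coding genes whose annotated name began with Timm, Tomm, Chchd or Apoo, or was Immt, Samm50, Mtx1, Mtx2, Pam16, Grpel1 or Micos13, and that had reads in both libraries. This gave 40 genes, of 15848 annotated genes and 13435 annotated protein-coding genes with a read in either library. The names matched 42 protein-coding genes in all. The other two were Timm8a2, a copy of Timm8a1, with 0 reads in both libraries, and Tomm20l, a relative of Tomm20, with 1 read in replicate 1 and 0 in replicate 2. No annotated gene carried the name Micos13. RefSeq gives that name to the gene annotated as 2410015M20Rik, a cristae subunit that is described below beside the members and not counted among them.

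The study sequenced long reads of RNA from whole heart tissue of B6CASTF1/J mice, which are hybrids between C57BL and CAST strains. The animals were female and 2 months old, no treatment or genetic change was named, and the labels gave 1 group with 2 biological replicates, and 2 µg of RNA went into each library. The labels of the samples gave the replicates different animal numbers, whereas the library text named the same animal for both and both carried the same donor identifier, so whether the replicates were separate animals was not settled. The exact binomial and Fisher p-values below ask only whether 2 counts differ by more than counting error. They include no spread between libraries or animals. Any such difference may therefore be technical, and no comparison of conditions was possible.

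Replicate 1 held 859191 reads on annotated genes and replicate 2 held 707758, of which the 40 genes took 5880 and 4466. Levels are reads per 1000000 reads on annotated genes (CPM), so that a single read equals 1.16 CPM in replicate 1 and 1.41 CPM in replicate 2. A count of 0 (3 reads at its upper limit) allowed up to 3.49 and 4.24 CPM. Reads carried no molecular identifier, so intervals and floors cover counting error only. The tissue label was checked against marker genes: all 5 cardiomyocyte markers (Myh6, Tnnt2, Tnni3, Actc1 and Ryr2) had reads in both libraries, and those of lung epithelium and liver were at 0. All markers of endothelial cells, fibroblasts, smooth muscle, macrophages and red blood cells also had reads in both. The 3 red blood cell markers summed to 25948 CPM in replicate 1 and 24128 CPM in replicate 2. The 5 cardiomyocyte markers summed to 34422 and 38498 CPM. The 3 adipocyte markers summed to 113 CPM in replicate 1 and 45.2 CPM in replicate 2. Their part in any difference between the libraries was not tested.

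Nearly all mitochondrial proteins are made in the cytosol and enter through the translocase of the outer membrane, after which separate routes sort them. Outer membrane barrels pass to the sorting and assembly complex, cysteine-rich proteins are trapped in the intermembrane space by oxidation, carriers are inserted by an inner membrane translocase of their own, and precursors with a presequence cross by another that is driven by a chaperone motor. At the cristae junctions the MICOS complex holds the inner membrane in narrow necks and touches the sorting and assembly complex. Heart muscle is dense in mitochondria, and its oxidative metabolism depends on this import and on tightly packed cristae.

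Together the 40 genes stood at 6844 CPM in replicate 1 and 6310.1 CPM in replicate 2, a mean of 6577 ± 377 CPM (SD, n = 2, as for all means below). Their share of annotated-gene reads was 0.684% in replicate 1 and 0.631% in replicate 2, with Wilson 95% intervals of 0.667 to 0.702 and 0.613 to 0.650. All 40 had at least 10 reads in total, and their median level of 104 CPM compares with 29.6 CPM over the 8947 protein-coding genes with as many reads. Timm9, Timmdc1, Chchd6, Chchd5 and Tomm34 were below that value on average. In bulk tissue, a gene read in fewer cells and a gene with less RNA per cell cannot be told apart. Each read was counted once whatever its length, so levels were not divided by length; how far recovery depends on length was not measured.

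Levels spanned a factor of 100.3 between the highest mean, that of Chchd10, and the lowest, that of Timm9. In all, 21 genes stood at 100 CPM or more and 10 stood under 50 CPM. When the genes were ordered by level, neighbours were mostly not separable: in 35 of the 39 neighbouring pairs the exact Poisson 95% intervals overlapped in both libraries. Chchd10 over Chchd2 and Chchd3 over Timm23 did not overlap in either library, and Chchd2 over Chchd3 and Timm23 over Grpel1 did not in 1 library. Below these 5 leading genes the intervals of all neighbours overlapped in both libraries.

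**Figure D1:**
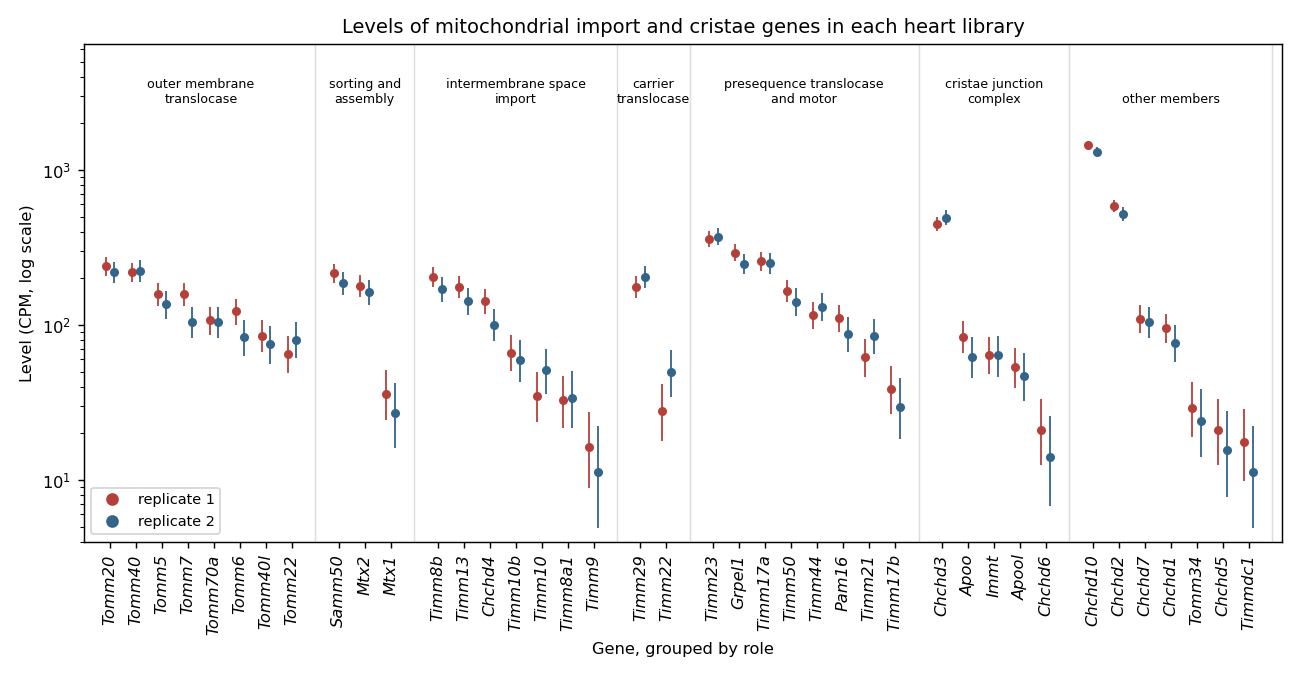
Level of each of the 40 genes in CPM (log axis) in replicate 1 and replicate 2, grouped by role, with exact Poisson 95% intervals. Chchd10 stands at 1455 and 1313 CPM, above all others, and each role group holds a spread of levels in both libraries.

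The outer membrane translocase, the common entry gate, had 8 members at 1153 CPM in replicate 1 and 1026 CPM in replicate 2. Tomm20, the receptor for presequences, led with 205 and 155 reads, or 239 and 219 CPM (228.8 ± 13.9 CPM; chr8:126930667-126945844 on mm10, minus strand). Tomm40, the beta-barrel channel of the complex, had 188 and 158 reads and 221 ± 3.13 CPM. The intervals of receptor and channel overlapped in both libraries.

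Tomm5, a small subunit, was the next highest with 136 and 96 reads (147 ± 16 CPM). The other small subunits followed, Tomm7 with 136 and 74 reads and Tomm6 with 105 and 59. Tomm70a, the receptor that takes carriers from cytosolic chaperones, had 92 and 74 reads (106 ± 1.78 CPM). Tomm40l, a second channel gene, had 73 and 53 reads, and Tomm22, the central receptor, had 56 and 57 reads. All 8 stayed between 72.9 and 229 CPM on average, the narrowest span among the groups with more than 3 members.

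The sorting and assembly complex, which folds barrel proteins into the outer membrane, had 3 members at 431 and 376 CPM. Samm50, its barrel core, had 185 and 132 reads (201 ± 20.4 CPM; chr15:84192241-84217267, plus strand). Mtx2, a metaxin on its cytosolic side, had 154 and 115 reads (171 ± 11.8 CPM). Mtx1, the other metaxin, was the low member with 31 and 19 reads (31.5 ± 6.53 CPM).

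Import into the intermembrane space was represented by 7 members at 673 and 568 CPM. Timm8b and Timm13, both small chaperones that escort hydrophobic precursors across this space, led with 176 and 120 reads (187 ± 25 CPM) and with 151 and 101 reads (159 ± 23.4 CPM). Chchd4, the oxidoreductase that traps cysteine-rich proteins, had 122 and 71 reads (121 ± 29.5 CPM). The remaining small chaperones were lower. Timm10b, which docks the chaperones on the carrier translocase, had 57 and 42 reads, Timm10 had 30 and 36, and Timm8a1 had 28 and 24. Timm9, the partner of Timm10 in the chaperone ring, had 14 and 8 reads (13.8 ± 3.53 CPM) and was the lowest of all 40 genes.

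The translocase that inserts carriers into the inner membrane had 2 members at 204 and 254 CPM. Timm29, a subunit of it known from mammals, held most of this with 151 and 145 reads (190.3 ± 20.6 CPM). Timm22, the channel-forming subunit, had 24 and 35 reads (38.7 ± 15.2 CPM), so the named channel was much the lower in both libraries.

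The presequence translocase and its motor formed the largest group of the core machinery, with 8 members at 1401 and 1344 CPM. Timm23, the central subunit, had 308 and 263 reads, or 358 and 372 CPM (365 ± 9.28 CPM; chr14:32180162-32201898, minus strand). Grpel1, the nucleotide exchange factor of the motor chaperone, had 251 and 175 reads (269.7 ± 31.7 CPM), and Timm17a, the partner of Timm23, had 221 and 177 reads (254 ± 5.04 CPM). These 3 genes stood above the rest of the group in both libraries.

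Timm50, the receptor that hands precursors to the channel, had 143 and 100 reads. Timm44, which tethers the motor chaperone to the channel, had 100 and 93, and Pam16, a regulator of that chaperone, had 95 and 62. Timm21, a subunit that in yeast contacts the outer translocase, had 53 and 60 reads, and Timm17b, the second form of the Timm23 partner, had 33 and 21. The 8 genes summed to 1372.5 ± 40.8 CPM.

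The cristae junction complex had 5 members at 669 and 680 CPM. Chchd3, a peripheral subunit that binds the core protein, took 66.8% and 72.6% of the reads of the group with 384 and 349 reads, or 447 and 493 CPM (470 ± 32.7 CPM; chr6:32790976-33060260, minus strand). Immt, the core subunit called mitofilin, had 55 and 45 reads, or 64.0 and 63.6 CPM (chr6:71831331-71877388, plus strand). Chchd3 therefore had 6.98 times the reads of Immt in replicate 1 and 7.76 times in replicate 2.

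Apoo and Apool, both apolipoprotein-like subunits of this complex, had 72 and 44 reads and 46 and 33 reads. Chchd6, a relative of Chchd3, had 18 and 10 reads (17.5 ± 4.82 CPM). The gene 2410015M20Rik, outside the members by its annotated name, had 197 and 148 reads (219 ± 14.3 CPM), more than any of the 5 members except Chchd3.

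The remaining 7 members share a name with the machinery and have other or less settled roles, and they held 2313 and 2063 CPM. Chchd10, a small intermembrane space protein, had 1250 and 929 reads, or 1455 and 1313 CPM, and ranked at place 92 among protein-coding genes (chr10:75933130-75937747, plus strand). Chchd2, its paralog, had 503 and 367 reads, or 585 and 519 CPM (552 ± 47.3 CPM), and ranked at place 247 (chr5:129881156-129887470, minus strand). Both genes together took 29.8% of the reads of the 40 genes in replicate 1 and 29.0% in replicate 2.

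Chchd7, a cysteine-rich intermembrane space protein, had 94 and 74 reads (107 ± 3.43 CPM), and Chchd1, a subunit of the mitochondrial ribosome, had 82 and 54. Tomm34, a cytosolic co-chaperone of precursors, had 25 and 17 reads. Chchd5, another cysteine-rich protein, had 18 and 11, and Timmdc1, an assembly factor of respiratory complex I, had 15 and 8. None of these 5 was above 107 CPM on average.

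Among 11 pairs of related genes, the gene named first held more than 50% of the pair's reads in both libraries in 7. Timm17a held 87.0% of the reads of Timm17a and Timm17b in replicate 1 and 89.4% in replicate 2 (Wilson 95% intervals 82.3 to 90.6 and 84.3 to 93.0). Chchd3 held 95.5% and 97.2% against Chchd6, and Grpel1 held 91.6% and 90.2% against Grpel2, its counterpart outside the rule. Tomm40 held 72.0% and 74.9% against Tomm40l. In each of these pairs the lower gene was still read in both libraries.

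Tomm20 held 99.5% and 100% against Tomm20l, and Timm8a1 held all 28 and 24 reads against Timm8a2. Apoo held 61.0% (52.0 to 69.3) and 57.1% (46.0 to 67.6) against Apool, which is not separable from an even split in replicate 2. On annotated models only, the share of Apoo in replicate 1 was not separable either, at 57.6% (47.7 to 66.8). With the reads of its pseudogene, described below, added to Apoo, the share was 74.6% (67.8 to 80.4) and 71.6% (62.8 to 79.0), above an even split in both libraries. Timm10 held 34.5% (25.3 to 44.9) and 46.2% (35.5 to 57.1) against Timm10b, not separable in replicate 2. Timm8a1 held 13.7% and 16.7% against Timm8b, Mtx1 held 16.8% and 14.2% against Mtx2, and Chchd2 held 28.7% and 28.3% against Chchd10. For the last 3 pairs both intervals lay below 50%. Between the libraries the share of the first gene varied by an SD of 8.25 percentage points for Timm10 and by 2.74 or less for the others.

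Some of these genes have near-identical copies in the annotation, counted here as transcripts whose length was covered to 80% or more at an identity of 95% or more. Such copies were annotated for 10 members and numbered 20, and 16 of them were processed pseudogenes. The count includes Gm45799, which overlaps Timm10b by 3086 bases on the same strand and so is not a copy at another place. Reads had been assigned to 10 of the copies, 91 reads in replicate 1 and 66 in replicate 2, or 1.52% and 1.46% of the reads of members and copies together. Most lay on Apoo-ps, the pseudogene of Apoo, with 63 and 39 reads beside 72 and 44 for Apoo itself. Apoo-ps is a processed copy on another chromosome (chr13:107414144-107414729, minus strand), and it was covered over 100% of its length at 100% identity by an Apoo transcript. The split of reads between Apoo and its pseudogene, at 46.7% and 47.0% on the pseudogene, is therefore uncertain.

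With both counted together, Apoo would stand at 157 and 117 CPM. Gm9803, a protein-coding copy of Pam16, had 10 and 8 reads, or 9.52% and 11.4% of the reads of the pair. Gm10273, Gm10171 and Gm16209, all copies of Timm23, had 10 and 12 reads together. Overlap with another gene on the same strand touched only Chchd2, which overlaps Phkg1 (8 and 17 reads), and Timm10b, which overlaps Gm45799 (5 and 1 reads). On the opposite strand 14 members overlap a gene with reads, the most being Nit2 beside Tomm70a (30 and 22 reads) and Tada2b beside Grpel1 (27 and 29). How strand was used in counting was not given in the sources used here, so those reads could not be told apart with certainty.

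No member was called between the libraries at an adjusted p below 0.05 in the exact conditional binomial test, with library totals as the null share and Benjamini-Hochberg adjustment over all genes tested. Of the 9334 genes tested 107 (1.15%) were called, 0.75% as higher and 0.396% as lower in replicate 1. At an unadjusted p below 0.05 there were 5 members of 40, beside 8.53% of all genes tested. edgeR's exact test with a preset biological coefficient of variation of 0.1 called 0 members after adjustment and 1 at an unadjusted p below 0.05, and with 0.2 it called 0 by both counts. In 37 of 40 members the libraries differed by less than 1.5-fold, and in none by 2-fold or more.

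The member with the lowest p was Tomm7, the small outer membrane subunit, at 158 CPM in replicate 1 and 105 CPM in replicate 2. Its ratio of replicate 1 over replicate 2 was 1.51 (exact 95% interval 1.13 to 2.04; exact p = 4.36e-03, adjusted p = 0.193). Tomm6 had a ratio of 1.47 (1.06 to 2.05; adjusted exact p = 0.405), Chchd4 of 1.42 (1.05 to 1.92; adjusted exact p = 0.429) and Chchd10 of 1.11 (1.02 to 1.21; adjusted exact p = 0.397). Timm22 had the opposite sign, at 27.9 and 49.5 CPM with a ratio of 0.565 (0.321 to 0.977; adjusted exact p = 0.520). For Chchd4 the log2 ratio of 0.50 became 0.08 when only annotated models were counted, and the rest of the difference lay in the reads of unannotated models.

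The log2 ratio of replicate 1 over replicate 2 had a median of 0.19 over the 40 genes and of -0.05 over all genes tested. It was above 0 in 30 of 40 members, beside 44.9% of all genes tested. Across all genes the log2 ratio changed by -0.09 per doubling of annotated length, and the leading models of these genes were short, with a median of 1559.5 bases beside 2748.5 bases for protein-coding genes. With that trend on length removed the median of the 40 genes was 0.20. The removal also shifted the other genes, and their median after it was not taken. The value of 0.20 therefore cannot be set against the -0.05 of all genes. With TMM scaling the median of the 40 genes was 0.23, a scaling that moved all genes by 0.05.

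**Figure D2:**
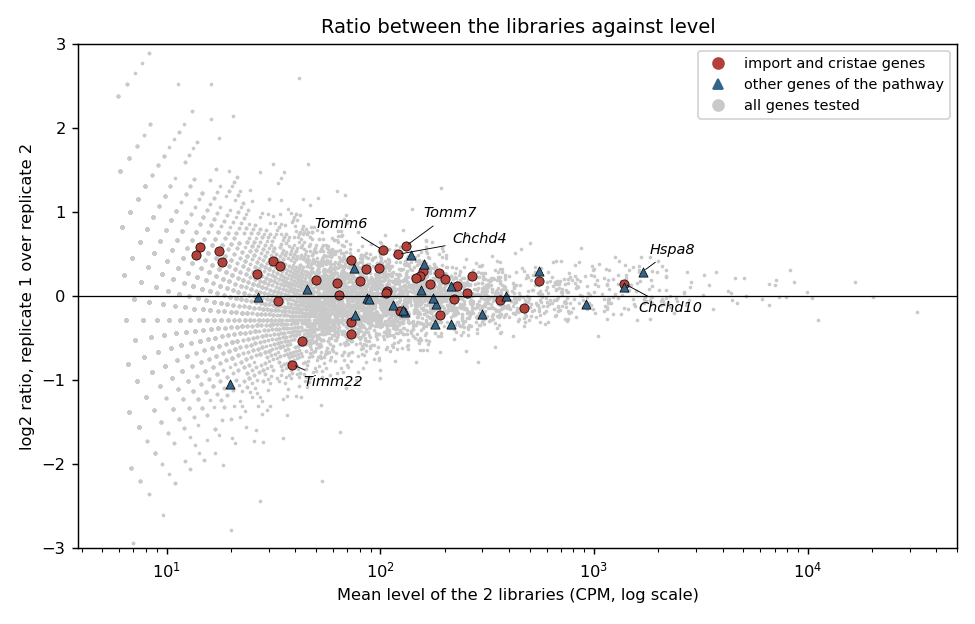
The log2 ratio of replicate 1 over replicate 2 (vertical axis) against the mean level in CPM (log axis) for the 40 genes, for 24 other genes of the pathway and for the 9334 genes tested, 11 of which lie outside the plotted range of 3 either way. The members sit within the cloud of all genes, with Tomm7, Tomm6 and Chchd4 on its upper and Timm22 on its lower side.

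Other genes of import and cristae biology were taken from a list of 27 names, of which 26 were found in the annotation, all with reads in both libraries, and 24 had at least 10 reads. Of these 24, 1 was called between the libraries, beside 1.15% of all genes tested, and 5 had an unadjusted p below 0.05, beside 8.53%. At a fold of at least 2 no gene of the list was called, beside 0.321% of all genes tested. Hspa8, the cytosolic chaperone that delivers carrier precursors, was the gene called, with 1597 and 1075 reads, or 1859 and 1519 CPM, and a log2 ratio of 0.29 (adjusted exact p = 7.11e-05). Hsp90ab1, a second cytosolic chaperone, had 1230 and 939 reads (1379 ± 74.1 CPM).

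Hspa9, the chaperone of the import motor, had 763 and 673 reads (919 ± 44.4 CPM), more than any member of the presequence translocase. Minos1, another cristae subunit, had 525 and 351 reads (553 ± 81.4 CPM), and Mtch1, a carrier-like protein of the outer membrane, had 333 and 275 reads (388 ± 0.691 CPM). Within the cristae complex, Minos1 and Chchd3 were thus the most read subunits, and Immt was read far less than either.

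Most reads of these genes matched known transcripts. Of the reads of the 40 genes, 90.7% in replicate 1 and 90.8% in replicate 2 lay on annotated models (Wilson 95% intervals 89.9 to 91.4 and 89.9 to 91.6), beside 75.9% and 75.6% for all protein-coding genes. Length bears on this, since 11 of the 40 leading models were under 1000 bases. Below that length the share was 95.7% and 95.5% for the members and 86.4% and 85.9% for protein-coding genes. At 1000 bases or more it was 86.8% and 87.5% for the members and 74.6% and 74.8% for protein-coding genes. The members' share was the higher in both length classes and both libraries, as a description with no test.

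The rest was split between single-exon models (4.91% and 4.30% of the members' reads), spliced models that match only a stretch of a known transcript (1.90% and 2.17%) and spliced models with a new junction or a new combination of junctions (2.52% and 2.73%). For protein-coding genes new splicing took 8.12% and 9.10%. The presequence translocase had 95.3% and 93.4% of its reads on annotated models. The sorting and assembly complex was lowest with 63.8% and 67.7%. Above it were intermembrane space import with 82.0% and 87.8% and the cristae complex with 83.5% and 84.8%, whose order was not the same in both libraries.

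**Figure D3:**
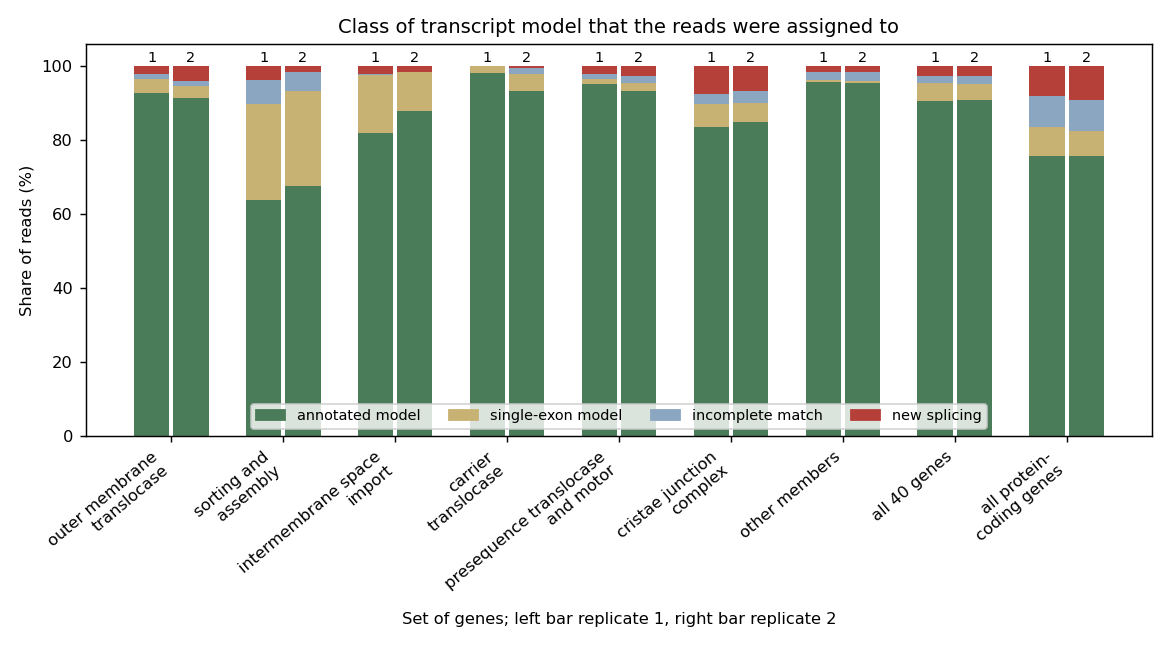
Share of reads (%) on annotated models, single-exon models, incomplete matches and models with new splicing, for each role group, for the 40 genes and for all protein-coding genes, with replicate 1 as the left and replicate 2 as the right bar of each pair. The sorting and assembly group has the largest single-exon share, 25.9% and 25.6%, and the cristae group the largest share of new splicing among the role groups, 7.48% and 6.65%.

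The share differed widely between genes. Of the 34 members with at least 20 reads in each library, 12 had at least 95% of their reads on annotated models in both libraries and 30 had at least 75%. In 3 genes the share was under 50% in both: Immt with 1.82% and 8.89%, Samm50 with 38.4% and 39.4%, and Chchd4 with 36.1% and 47.9%. No member's share differed between the libraries at an adjusted p below 0.05 (two-sided Fisher's exact test, Benjamini-Hochberg over 4651 genes, of which 0.129% were called). With 50 or more reads in each library 0 of 26 members were called, beside 0.264% of all such genes. At an unadjusted p below 0.05 there were 2 of 34, Chchd1 and Grpel1, beside 4.58% of all genes tested. When single-exon genomic models were left out, 2 members were called, beside 1.3% of all genes tested. They were Chchd4 with 44 of 44 reads annotated in replicate 1 and 34 of 71 (47.9%) in replicate 2 (adjusted exact p = 5.74e-08), and Samm50 with 71 of 91 and 52 of 127 (40.9%; adjusted exact p = 9.79e-06).

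**Figure D4:**
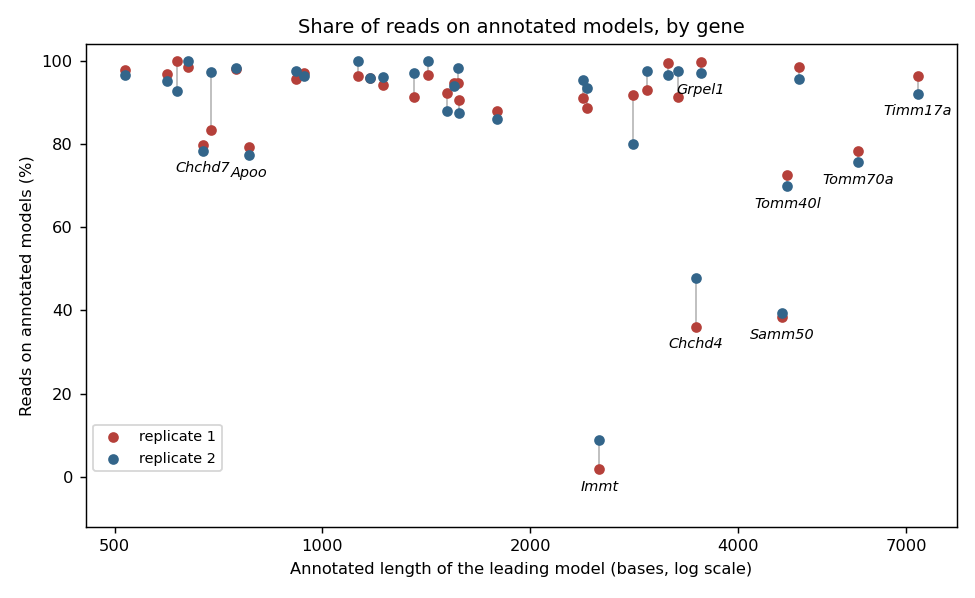
Share of reads on annotated models (%) against the annotated length of the leading model (bases, log axis) for the 34 members with at least 20 reads in each library, with both replicates of a gene joined by a line. Immt, Chchd4 and Samm50 lie below 50% in both libraries, and most other genes lie above 75% at every length.

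Immt was the member whose reads matched annotated models least. Of its 55 and 45 reads, 1 and 4 lay on annotated models, and 27 and 24 were spliced. Neither annotated transcript with all 15 exons, Immt-201 or Immt-202, had a read. Reads spanning each internal exon held all of them except exons 5, 6 and 11, which are coding and have lengths of 138, 96 and 15 bases, all multiples of 3. Those 3 exons are shown here because the Immt reads differ from the annotation there. The sequences are from the GENCODE M21 transcript on mm10, plus strand, 5′ to 3′. In exon 5 (chr6:71852730-71852867) capitals mark the 33 bases present only in its long form; exon 6 lies at chr6:71853173-71853268; exon 11 (chr6:71866726-71866740) is shown in capitals between 10 bases of exon 10 and 10 bases of exon 12.
Immt exon 5: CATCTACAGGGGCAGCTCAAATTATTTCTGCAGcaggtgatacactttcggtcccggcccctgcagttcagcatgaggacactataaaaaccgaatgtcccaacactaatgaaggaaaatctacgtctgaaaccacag
Immt exon 6: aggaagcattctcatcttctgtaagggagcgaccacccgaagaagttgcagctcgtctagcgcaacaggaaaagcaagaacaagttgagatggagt
Immt exon 11 in place: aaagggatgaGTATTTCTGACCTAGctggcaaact

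Exon 5 was held by 9 of 26 spanning reads (34.6%) in replicate 1 and by 7 of 20 (35%) in replicate 2, with Wilson 95% intervals of 19.4 to 53.8 and 18.1 to 56.7. Its long form of 138 bases was found in 5 and 3 reads and its short form of 105 bases in 2 and 4, while 2 reads of replicate 1 had other ends. Exon 6 was held by 3 of 26 reads and 2 of 20 reads, always together with exon 5. Neither exon was present in 17 of 26 spanning reads (65.4%, Wilson 95% interval 46.2 to 80.6) and in 13 of 20 (65%, 43.3 to 81.9). Both intervals include an even split.

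The 15-base exon 11, shown in capitals above, was held by 0 of 25 spanning reads in replicate 1 and by 1 of 21 in replicate 2. A count of 0 of 25 allows a share of up to 12%. Of the annotated coding models that span this region, 4 hold exon 11, either with exons 5 and 6 or without both, and 1 holds exon 5 alone. The combination read most often, with none of exons 5, 6 and 11, made up 16 of 25 reads (64.0%) that span from exon 4 to exon 12 in replicate 1 and 12 of 19 (63.2%) in replicate 2. No annotated coding model has that combination. Exon 11 was counted by model coordinates, so these shares and the limit of 12% rest on its bases being placed rightly, which was not tested.

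The junctions of the reads that left out exon 11 were not uniform. In 11 of 25 reads of replicate 1 and 7 of 20 of replicate 2 the junction ran between the annotated ends of exons 10 and 12. In 11 and 7 reads the exon before was longer by 4 bases, in 3 and 5 the exon after was longer by 13 bases, and in 1 read of replicate 2 it was longer by 1019 bases. At all other Immt junctions 98.5% and 98.6% of the read junctions had annotated ends. The deposited models give coordinates and no read sequence, so whether bases of exon 11 were present in these reads was not tested.

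**Figure D5:**
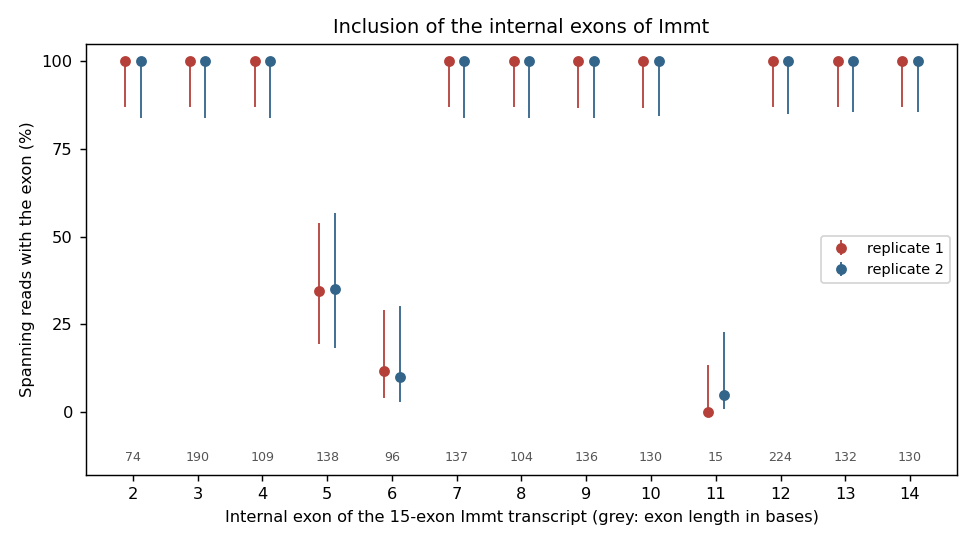
Share of spanning reads (%) that held each internal exon of the 15-exon Immt transcript, with Wilson 95% intervals, for replicate 1 and replicate 2; grey numbers give exon lengths in bases. Exons 5, 6 and 11 stand apart from the other internal exons, which all spanning reads held in both libraries.

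Chchd3, which binds Immt, has an annotated exon of the same size, and its reads allow a closer limit. This exon of transcript Chchd3-205 (chr6:32893392-32893406, minus strand) is shown in capitals between 10 bases of each neighbouring exon.
Chchd3 exon 5 in place: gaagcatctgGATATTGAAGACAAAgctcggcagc

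It was held by 0 of 377 spanning reads in replicate 1 and 0 of 340 in replicate 2, which allows a share of up to 0.796% and 0.882%. Here the junctions of the reads that left it out had annotated ends in 99.7% and 99.4%, unlike those of Immt around its 15-base exon.

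Over all members, 167 annotated internal exons in 35 genes had at least 10 spanning reads in each library, and 132 of them were held by every spanning read. Under 95% inclusion in both libraries was found for 13 exons in 8 genes, and 8 of these were below 50%. Of the 13, 9 had a length that is a multiple of 3, beside 41.3% of the 167. In Timm22, exon 2 (chr11:76409642-76409838, 197 coding bases) was held by 18 reads and left out by 4 (81.8%) in replicate 1 and held by 23 and left out by 5 (82.1%) in replicate 2. In Timm10b, exon 2 was held by 87.0% and 90.2%, and in Chchd5 exon 2 was held by 10 reads and left out by 6 in replicate 1 and held by 8 and left out by 2 in replicate 2. Chchd6 lacked exon 5 in 1 and 2 reads. In Tomm5 a 50-base exon was held by 2.24% and 4.17% of reads and a 179-base exon by none of 134 and 96. In Chchd7 an annotated 105-base exon was counted as held by 6.74% and 2.99%, all on an overlapping exon of 117 bases described below. A 39-base exon of Chchd7 was held by 6.82% and 3.12%.

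In all, 83 annotated models had reads, and 27 of the 40 genes had reads on more than 1. Of the 33 members whose annotated models had 20 reads or more in each library, 24 had a leading model with at least 95% of them in both, and none had a second model of at least 20% in both. Chchd7, the cysteine-rich protein, had 76.0% and 63.8% on Chchd7-201 and 12% and 20.7% on Chchd7-208, both with 255 coding bases. Timm22 had 77.3% and 82.1% on Timm22-201 and 18.2% and 17.9% on the 3-exon model Timm22-203, which has 348 coding bases in place of 582. Timm10b had 59.6% and 65.9% on its leading model Timm10b-203.

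Tomm40 had 90.6% and 89.1% on Tomm40-202 and 9.41% and 10.9% on Tomm40-201, which has the same coding length of 1083 bases. Models annotated as protein-coding held 99.6% of the members' annotated reads in both libraries. Isoform use between the libraries was tested for the 9 members whose leading model was under 95% in at least 1 library, of which 0 were called (two-sided Fisher's exact test with Benjamini-Hochberg adjustment, 0.088% of 1136 genes called) and 0 had an unadjusted p below 0.05, beside 3.96% of all genes tested.

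The unannotated reads of Samm50 and Chchd4 were mostly on single-exon models, whose class differed between the libraries. For Samm50, the barrel of the sorting complex, 92 reads of replicate 1 lay on a genomic single-exon model that began in the intron before the last exon, and 63 reads of replicate 2 on a single-exon model classed as an incomplete match. These models ended 2964 and 2969 bases short of the annotated 3′ end. The spliced but unannotated Samm50 reads, 20 and 12, lay on models that all ended at the same places, 2964 and 2969 bases short. These places lie within the annotated last exon of 3142 bases. Ends were given per model, so where each Samm50 read ended was not known. For Chchd4, 78 and 37 reads lay on single-exon models within its last exon, which also has 3142 bases.

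The 3′ end of the model of each read was taken for the 14 members with at least 5 spliced unannotated reads in each library. In 9 the median end lay within 50 bases of the annotated end in both libraries. In 4 it lay over 500 bases short of it in both: Samm50, Timm17a (6603 bases in both), Tomm70a (2177 and 2175 bases) and Tomm40l (1791 and 3182 bases). These 4 genes have annotated last exons of 3142 to 6791 bases. Ends were given per model and not per read, and those of annotated reads were not part of the counts used here. The result therefore concerns the models of a small number of reads per gene, 7 and 12 for Timm17a.

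New splicing was found on 96 models in replicate 1 and 81 in replicate 2, and 29 chains of introns, in 16 members, were found in both libraries. These shared chains held 73 of 148 and 61 of 122 such reads. The most read was an Immt chain with 4 extra bases after the exon before exon 11 and with none of exons 5, 6 and 11 (8 and 4 reads), and an Immt chain with 13 extra bases on the other side had 3 and 5. Both are the displaced junctions described above.

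Timm50, the precursor receptor, had a chain of 10 exons (4 and 7 reads). By its model coordinates it left out the 22-base exon 4 of the leading model and had an exon 3 longer by 22 bases. Whether the added bases are those of exon 4 was not tested. Chchd7 had a chain that ended in an exon of 1642 bases in the deposited model measured, which began 1468 bases before exon 3 (4 and 5 reads). Chchd7 also had a chain with an extra exon of 117 bases (6 and 2 reads). That exon overlaps the annotated 105-base exon named above, and these are the reads counted as holding it. Tomm40, the channel, had a chain with an exon 4 longer by 145 bases (1 and 6 reads). Each of these chains rests on 12 reads or fewer over both libraries.

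Among incomplete matches, which use known junctions only, a chain of 3 exons of Chchd10 had 21 and 25 reads and was the most read unannotated chain of the 40 genes. In the single deposited model measured, the first exon of this chain had 442 bases, of which 441 lay past the end of exon 1 of the leading model. That exon of the model thus held almost none of exon 1 and ran through the first intron into exon 2. Starts were given per model, so where each of these reads began was not known. The last 3 exons of Chchd2 had 12 and 3 reads, and the last 3 of Samm50 had 7 and 6. A single chain of Mtx1, of exons 5 to 8, had 6 and 2 reads. A single chain each of Timm23 (4 and 3 reads), Apoo (3 and 4) and the last 2 exons of Chchd2 (5 and 2) followed. In proportion to the 1250 and 929 reads of Chchd10 these were few, since 97.0% and 96.3% of its reads lay on annotated models.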

How the data were processed

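RNA of 2 heart libraries was analysed from the deposited counts of long reads per transcript model, whole numbers that are not normalized and not pooled. The counts were made by the authors on mm10 with GENCODE M21 as the annotation, per the file headers, and the model names and classes have the form that TALON gives. The aligner, the filters and their versions are not given in the sources used here. Lengths and exons of models were also deposited.

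The 40 members, the role groups, the partner list and the tests were chosen with earlier results of these data known. Gene counts are sums over a gene's models without spike-ins, and CPM refers to the total over annotated genes. A single group of 2 libraries leaves no residual degrees of freedom, so edgeR's quasi-likelihood test could not be run. In its place a two-sided exact conditional binomial test compared the libraries for every gene with 10 or more reads over both, with Benjamini-Hochberg adjustment and a threshold of 0.05. Before log2 ratios were taken, 0.5 reads were added. Fisher's exact test compared annotated shares, over all genes with 20 reads or more in both libraries. It compared the use of isoforms over genes with 20 annotated reads or more in both, leaving out those whose leading model held 95% or more in both. Alternatives used edgeR 4.0.16 and DESeq2 1.42.0 on R 4.3.3. Copies were found with minimap2 2.31-r1302, and other steps used Python 3.11.15 with scipy 1.17.1.

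Every member is named with its reads. Fuller values are given for the 3 most read of each role group, for paralog pairs, for members with the lowest p, for the 10 most read unannotated spliced chains found in both libraries (with ties) and for the 5 most read partners. Genes named for their exons, 3′ ends or copies were chosen after their values were seen.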

Additional observations from a re-analysis of the deposited data

How the results depend on the processing

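The count of 0 members called between the libraries was the same with TMM and DESeq2 scaling and with no read minimum or a minimum of 20. It was also the same on annotated models only and with the trend on length removed. Preset variation of 0.1 and 0.2, which allows for more spread, gave 0 as well. A fold of at least 2 only filters genes already called, so its count of 0 was fixed in advance. It also held when reads on near-identical copies were added, an alternative chosen after seeing the data, which put the summed level at 6676 CPM and the share of Apoo beside Apool at 73.1% in place of 59.1%. Over all genes the count of 107 called became 12 and 4 with the preset variation, 30 with the fold and 58 with the trend removed. The level was 6310.1 to 6844 CPM with 1 replicate left out, and 5967 CPM on annotated models only. The summed level of the 33 members in named complexes was 4389 CPM. It was 3873 CPM on annotated models only and 3919 CPM without Chchd3, its most read member. The annotated share of 90.7% became 93.4% without single-exon genomic models and 89.1% without Chchd10.

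Without single-exon genomic models 2 members, Chchd4 (adjusted Fisher's exact p = 5.74e-08) and Samm50 (9.79e-06), differed between the libraries in annotated share. By construction this drops 78 Chchd4 reads of replicate 1 and 0 of replicate 2, since the class of these models differed between the libraries. Of 30 alternatives for the main results 24 left them the same and 6 moved them. A level or share counted as the same within the SD of the 2 libraries. The 24 include the fold of at least 2, which could not change its count. They also include levels and annotated shares with 1 replicate left out, which lie within that SD by construction. The 6 include the count of members with a different annotated share, which went from 0 to 2. No paired analysis was possible because there was only 1 group. Genes under about 20 reads a library could not be tested for shares, and exon shares of Immt rest on 20 to 26 reads.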
